A study of Mus musculus with 24 samples.

Results

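The genes described here are 10 genes of steroid synthesis and of the ovary: Star, Cyp11a1, Fdx1, Hsd3b1, Cyp17a1, Cyp19a1, Akr1c18, Inha, Amh and Foxl2. They were listed by name, and all 10 were found among the 56422 gene names of the deposited table. Fdx1 and Akr1c18 were chosen by their differences in TPM between these treatment groups, so their levels and their differences between groups are given as a description with no test. The other 8 were listed as a sign of ovary in the sampled pieces, and their levels are likewise a description.

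Transcript abundance was measured by RNA sequencing of polyadenylated RNA in 24 mouse samples of peritoneal metastasis, in which tumour cells spread over the lining of the abdomen. The labels give the tissue of all samples as peritoneum. There were 6 samples each in a control group with no treatment, a propionate group, a butyrate group and a combination group given both acids. Both are short-chain fatty acids, products of fibre fermentation by gut bacteria. The series title concerns mannose and anti-PD-1 therapy in ovarian cancer, but the labels of these samples name neither agent. Mouse strain, age, sex, tumour cells, dose and time are not stated in the labels. Whether replicates were separate animals is not stated either, so each p-value reflects the spread among these libraries, and that spread may be technical. Levels are in TPM, a unit corrected for transcript length and scaled to the same total in every library. A gene's level in a piece of tissue depends on how many cells of a type it holds and on the RNA per cell, and these cannot be told apart here.

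Steroid hormones are made from cholesterol. STAR carries cholesterol to the inner mitochondrial membrane, where the enzyme CYP11A1 cuts its side chain to give pregnenolone, with electrons passed from ferredoxin reductase through ferredoxin (FDX1). HSD3B enzymes turn pregnenolone into progesterone, CYP17A1 leads on to androgens, and CYP19A1, aromatase, makes estrogens from them. AKR1C18 inactivates progesterone and is known in the rodent ovary for its part in the end of luteal function. Inhibin alpha (Inha) and anti-Müllerian hormone (Amh) are secreted by granulosa cells of the follicle, and FOXL2 is a transcription factor that keeps granulosa cell identity. NR5A1, also called SF-1, is a nuclear receptor that drives many steroid genes in the gonads and the adrenal gland.

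Levels of the 10 genes did not form the pattern of a whole ovary. Star, Inha, Amh and Cyp11a1 were present, but Cyp19a1 was listed at 0 in all 24 libraries, Foxl2 did not exceed 0.05 TPM and Hsd3b1 did not exceed 0.14 TPM. The receptor for follicle-stimulating hormone, Fshr, was listed at 0 in all 24 libraries, and Lhcgr, the receptor for luteinizing hormone, reached 0.25 TPM. Of 15 oocyte genes in the table, 12 never reached 1 TPM and 3 of these were at 0 throughout. The summed level of the oocyte list stayed at or below 4.98 TPM in every library, and Zp3, a gene of the egg coat, did not exceed 0.05 TPM. Of the adrenal steroid enzymes, Cyp11b1 and Cyp11b2 were listed at 0 in every library and Cyp21a1 did not exceed 0.19 TPM. The other adrenal genes were not all near 0: Mc2r, the receptor for the hormone that drives the adrenal cortex, reached 11.13 TPM and its partner Mrap lay between 3.25 and 139.97 TPM, and adipocytes of the mouse are known to make both. The genes are therefore called by their names and not as ovary.

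The RefSeq promoter table of build GRCm38.p6 held 7 of the 10 genes. The 24 libraries were quantified on build mm39, so these coordinates apply to the promoter table only. The stretches before the start sites of Akr1c18 and Fdx1 are shown because these are the members picked for their changes. The 8 bases of the Akr1c18 window next to its start site were left off. Of Cyp11a1, the enzyme that opens the pathway, 30 bases from within the window before its downstream start site are shown, with a match to AGGTCA in capitals whose recorded position is -28 from that start. All are written 5′ to 3′ on the strand of the gene, Akr1c18 from chr13:4150655-4150896 (minus strand), Fdx1 from chr9:51963603-51963852 (minus strand) and Cyp11a1 from chr9:58014912-58014941 (plus strand).
Akr1c18: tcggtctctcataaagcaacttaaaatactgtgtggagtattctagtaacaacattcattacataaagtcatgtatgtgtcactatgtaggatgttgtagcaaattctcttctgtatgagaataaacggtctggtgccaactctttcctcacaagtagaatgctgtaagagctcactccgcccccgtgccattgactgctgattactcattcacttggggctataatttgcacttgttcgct
Fdx1: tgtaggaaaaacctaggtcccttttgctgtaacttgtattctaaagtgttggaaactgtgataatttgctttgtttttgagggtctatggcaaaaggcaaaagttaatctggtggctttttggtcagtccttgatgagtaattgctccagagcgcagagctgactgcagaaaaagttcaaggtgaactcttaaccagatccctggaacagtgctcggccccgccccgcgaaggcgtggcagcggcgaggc
Cyp11a1: gaggaaggggggAGGTCAccgctccatcag

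Motifs were searched on both strands in the 250 bases before each start site. The SF-1 motif CAAGGTCA was in none of the windows of these 7 genes, and 1.33% of the 32851 windows in the table hold it. TATAAA was found only in windows of Cyp19a1 among these genes, against 12.4% of all windows. AGGTCA, the core of the SF-1 motif and therefore inside every CAAGGTCA match, was chosen after the search for the longer motif and was in 14% of all windows. It was in a window of Cyp11a1, a window of Cyp19a1 and the window of Inha. A match is a run of letters and no measured binding site.

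Star, the cholesterol carrier, reached the highest TPM of the 10 genes. Its lowest, median and highest levels were 1.06, 87.18 and 137.5 TPM in control, 1.02, 4.1 and 126.7 TPM with propionate, 0.89, 5.3 and 52.65 TPM with butyrate and 0.7, 3.35 and 81.85 TPM with the combination. In 5 of the 6 control libraries Star was above 20 TPM, as it was in 2 libraries of each treated group, so every treated group overlapped control. The mean was 81.73 TPM in control, against 37.29 TPM with propionate, 14.4 TPM with butyrate and 27.32 TPM with the combination. On the log2(TPM + 1) scale Star differed from control by -2.30 ± 1.32 (SE) with propionate, -2.72 ± 1.32 with butyrate and -2.49 ± 1.32 with the combination. None of these differences passed limma's test with Benjamini-Hochberg adjustment over 15163 genes, with adjusted p-values of 0.3328, 0.1378 and 0.5083.

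Inha, the alpha subunit of inhibin, had the same division among libraries. Its lowest, median and highest levels were 0.89, 41.11 and 77.21 TPM in control, 0.72, 2.31 and 65.3 TPM with propionate, 0.89, 4.65 and 38.26 TPM with butyrate and 0.43, 2.545 and 47.86 TPM with the combination. All treated groups overlapped control, and their highest libraries lay above the control median with propionate and the combination. The log2 differences from control were -2.05 ± 1.15 (SE), -2.10 ± 1.15 and -2.33 ± 1.15 in the same order, with limma adjusted p-values of 0.3328, 0.1769 and 0.4938.

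Amh, which in the adult female is a hormone of growing follicles, did not exceed 11.36 TPM. Its lowest, median and highest levels were 0.13, 5.9 and 11.36 TPM in control, 0, 0.21 and 10.06 TPM with propionate, 0, 0.455 and 2.5 TPM with butyrate and 0.04, 0.365 and 8.06 TPM with the combination. In the butyrate group every library lay below 5 of the 6 control libraries. Amh differed from control by -1.32 ± 0.69 (SE) on the log2 scale with propionate, -1.75 ± 0.69 with butyrate and -1.41 ± 0.69 with the combination. The limma adjusted p-values were 0.3328, 0.1151 and 0.4882, and the unadjusted p of limma in butyrate was 0.01894. Since 35.1% of all tested genes were lower with butyrate at an unadjusted p under 0.05, that value does not set Amh apart.

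Cyp11a1, the side-chain cleavage enzyme, was low in all libraries. Its lowest, median and highest levels were 0.3, 2.96 and 5.29 TPM in control, 0.04, 0.275 and 6.75 TPM with propionate, 0.33, 0.88 and 2.91 TPM with butyrate and 0.46, 0.76 and 4.52 TPM with the combination. The highest library of all was of the propionate group, and all groups overlapped. The log2 differences from control were -0.72 ± 0.50 (SE), -0.70 ± 0.50 and -0.60 ± 0.50 in the same order, and the limma adjusted p-values were 0.3611, 0.2895 and 0.6207.

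Cyp17a1, Hsd3b1, Foxl2 and Cyp19a1 were too low to test. Cyp17a1 was at 0 in 6 libraries and reached 0.65 TPM in a control library. Hsd3b1 was at 0 in 18 libraries, Foxl2 at 0 in 20 and Cyp19a1 at 0 in all 24. Other members of the HSD3B family were present, with Hsd3b7, an enzyme of bile acid synthesis, at 11.67 to 54.72 TPM and Hsd3b2 at 0.29 to 1.71 TPM.

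**Figure D1:**
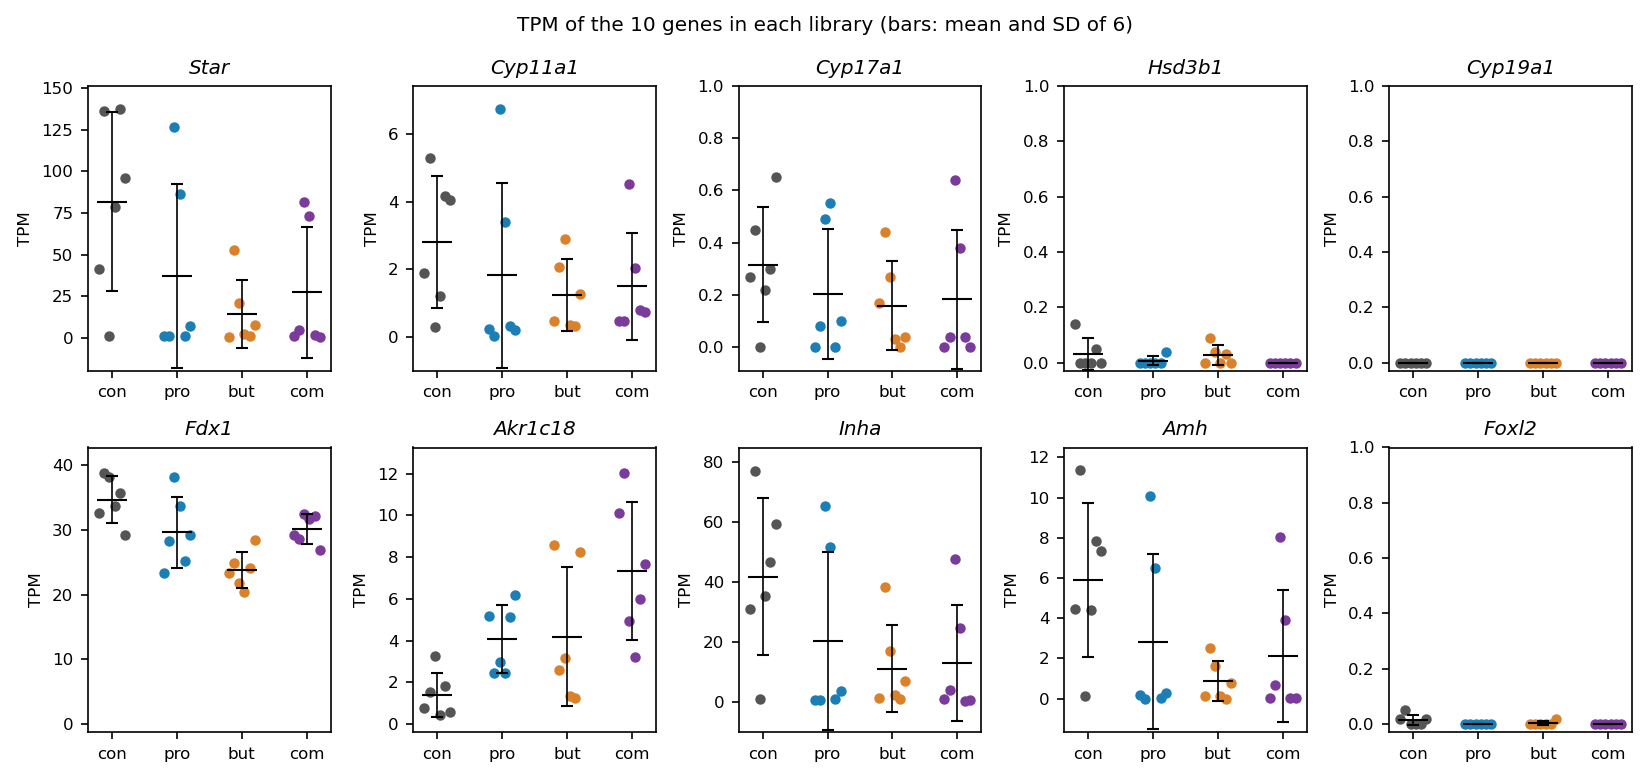
TPM of each of the 10 genes (y axis, linear) in the 24 libraries, by group (con, control; pro, propionate; but, butyrate; com, combination); points are libraries and bars show the mean and SD of 6 libraries. Star, Inha, Amh and Cyp11a1 are spread widely within every group, while Fdx1 stays between 20.44 and 38.81 TPM and Cyp19a1 is at 0 throughout.

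Fdx1, the ferredoxin that hands electrons to CYP11A1 and that also serves other mitochondrial enzymes in most cells, stayed within 20.44 and 38.81 TPM in all libraries. Its lowest, median and highest levels were 29.12, 34.69 and 38.81 TPM in control, 23.29, 28.69 and 38.15 TPM with propionate, 20.44, 23.7 and 28.47 TPM with butyrate and 26.83, 30.4 and 32.37 TPM with the combination. All 6 butyrate libraries lay below all 6 control libraries, while the propionate and combination groups overlapped control. This separation is the kind of value Fdx1 was picked for, and 1.82% of all tested genes were likewise lower with butyrate without overlap. On the log2 scale Fdx1 differed from control by -0.23 ± 0.12 (SE) with propionate, -0.52 ± 0.12 with butyrate and -0.19 ± 0.12 with the combination. The median of all tested genes moved in the same direction, by -0.30, -0.38 and -0.12, so relative to it Fdx1 stood at 0.07, -0.14 and -0.07.

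The size of the Fdx1 difference, and with propionate its direction, depended on how libraries were scaled to each other. Scaled by the median of ratios, its log2 differences from control were 0.13, -0.06 and -0.08, and after quantile normalization they were 0.10, -0.06 and -0.05. After median-of-ratios scaling the control libraries ranged from 22.97 to 46.24 and the butyrate libraries from 22.05 to 33.62, so the groups overlapped. Under that scaling, 0.692% of tested genes were lower with butyrate without overlap. The factors used in this scaling ranged from 0.8235 to 1.455 in control and from 0.7038 to 1.119 with butyrate. A single transcript carried 94.83 to 98.76% of the Fdx1 signal of a library, and that transcript alone gave a log2 difference of -0.54 with butyrate. Fdx2, a second ferredoxin used in building iron-sulfur clusters, lay between 18.71 and 33.49 TPM and differed from control by 0.12 ± 0.12 (SE) with butyrate, with a limma adjusted p of 0.4529. Fdxr, the reductase that feeds FDX1, lay between 2.32 and 16.61 TPM and differed by -1.08 ± 0.42 (SE) with butyrate, with a limma adjusted p of 0.115.

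Akr1c18, the progesterone-inactivating enzyme, was the only one of the 6 tested members that was higher in the treated groups. Its lowest, median and highest levels were 0.44, 1.165 and 3.25 TPM in control, 2.43, 4.04 and 6.18 TPM with propionate, 1.25, 2.88 and 8.56 TPM with butyrate and 3.2, 6.835 and 12.05 TPM with the combination. The lowest combination library, at 3.2 TPM, lay just below the highest control library, at 3.25 TPM, so 35 of the 36 pairs of a combination and a control library had the higher value in the combination. For propionate this held in 33 of 36 pairs and for butyrate in 28 of 36. How many of all tested genes reach such pair counts was not counted. Akr1c18 differed from control by 1.12 ± 0.37 (SE) on the log2 scale with propionate, 0.97 ± 0.37 with butyrate and 1.80 ± 0.37 with the combination. The 3 comparisons share the control libraries, and Akr1c18 was picked for these values. Between the combination and each acid alone the difference was 0.68 ± 0.37 (SE) against propionate and 0.83 ± 0.37 against butyrate, and the groups overlapped in both.

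Akr1c18 kept its direction in all 24 other settings of each comparison with control. These settings reuse the values that Akr1c18 was picked for, so they show how far the setting matters and give no separate support. Scaled by the median of ratios, the log2 differences were 1.35, 1.25 and 1.81, and after quantile normalization 1.49, 1.33 and 1.87. A pseudocount of 0.1 gave 1.66, 1.42 and 2.47, since the gene was near 1 TPM in control. Akr1c18 belongs to a cluster of close copies: in the RefSeq gene order Akr1c14 is its neighbour on one side and Akr1c13, Akr1c19, Akr1c12, Akr1c6, Akr1c20 and Akr1c21 follow on the other. Reads shared between copies could be assigned to the wrong gene, which makes the level uncertain. The neighbours Akr1c14 and Akr1c13 did not share its direction, at -0.46 ± 0.69 (SE) and -0.50 ± 0.65 in the combination against control, with limma adjusted p-values of 0.7826 and 0.7458.

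Markers of fat lay above control in the treated groups, with no gene of the list past the test. The summed level of 6 adipocyte genes was 354.5 to 1170 TPM in control, 681.7 to 1458 TPM with propionate, 508.9 to 2043 TPM with butyrate and 675.2 to 11570 TPM with the combination. All 6 adipocyte genes lay above control in each treated group, with median log2 differences of 0.46, 0.58 and 1.72, where 20.7%, 21.2% and 34.1% of all tested genes lay above control. This was not particular to fat. All 8 skeletal muscle genes also lay above control with propionate and butyrate, with median log2 differences of 0.30 and 0.49. With the combination all 8 lay below control, with a median of -1.64, and none of the 8 passed in any of these. Skeletal muscle genes summed to 22920 to 89620 TPM in control and to 18.32 to 96770 TPM in the combination, where replicate 5 nearly lacked muscle transcripts. The same replicate had the highest adipocyte sum, at 11570 TPM, and a T lymphocyte sum of 451.4 TPM. Without it the combination libraries ranged from 675.2 to 5566 TPM for adipocyte genes, from 3.23 to 36.45 TPM for T lymphocyte genes and from 42070 to 96770 TPM for muscle genes. All 6 adipocyte genes then still lay above control, with a median log2 difference of 1.24, and the Akr1c18 difference of the combination was 1.83. The 8 muscle genes then all lay above control too, with a median of 0.29. The part of adipocytes or of muscle in the Akr1c18 values was not tested.

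**Figure D2:**
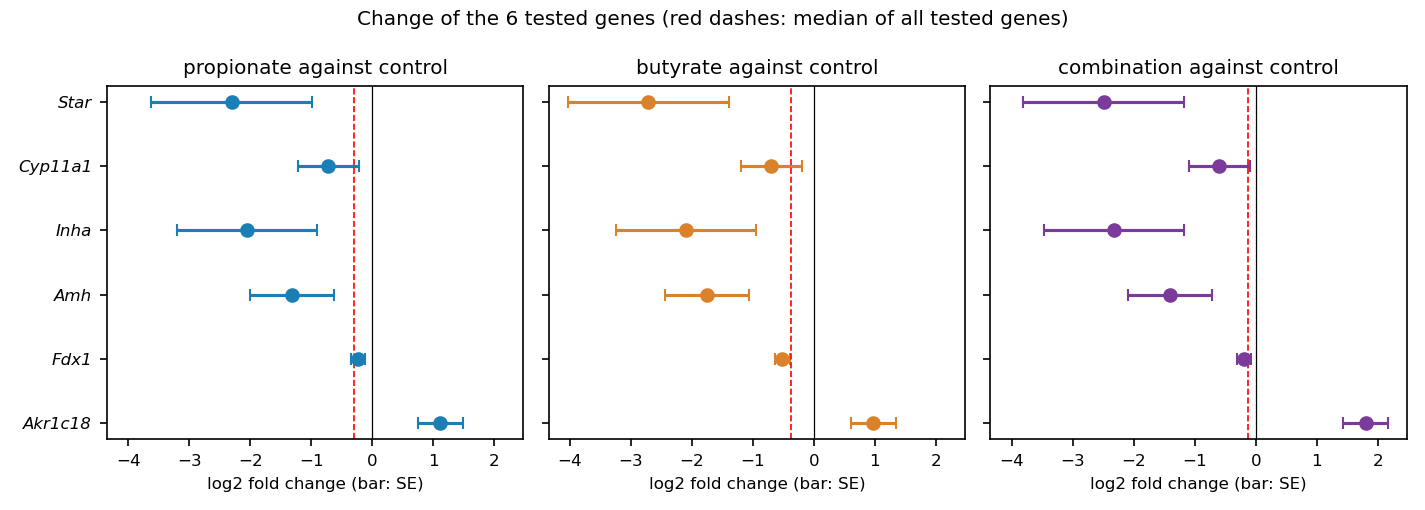
Log2 fold change in log2(TPM + 1) with its SE (x axis) of the 6 tested genes for each treated group against control; red dashes mark the median of all 15163 tested genes. Akr1c18 lies at 1.12, 0.97 and 1.80 and the other 5 genes lie below 0, with Fdx1 close to the median of all genes.

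**Figure D3:**
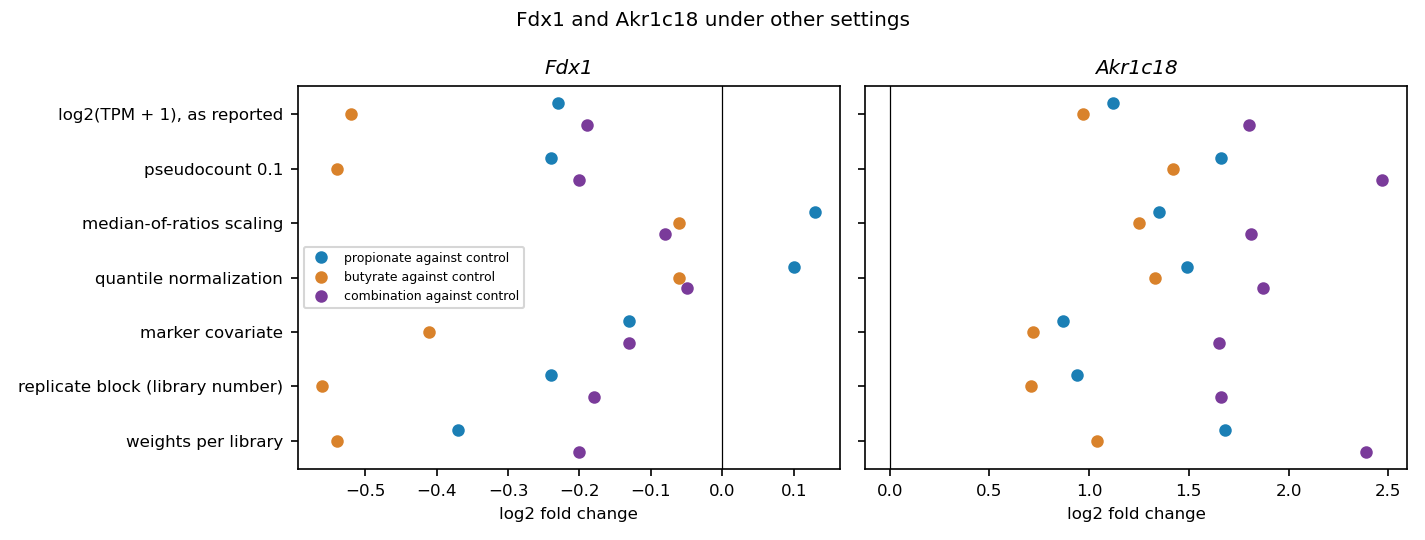
Log2 fold change (x axis) of Fdx1 and Akr1c18 against control under each setting (rows), with 1 point per treated group. Fdx1 changes sign with propionate under median-of-ratios scaling, at 0.13, and under quantile normalization, at 0.10, and Akr1c18 stays above 0 in every row.

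Over the whole table, no gene passed limma's adjusted threshold of 0.05 in any of the 5 comparisons, so the share of genes called was 0% in each. The smallest adjusted p was 0.3328 for propionate, 0.1148 for butyrate and 0.1719 for the combination against control, and 0.5068 and 0.3172 for the combination against propionate and butyrate. At an unadjusted p under 0.05, 66 genes were higher and 1385 lower with propionate, 181 higher and 5325 lower with butyrate, and 940 higher and 622 lower with the combination. The combination had 1278 higher and 65 lower against propionate, and 2213 higher and 141 lower against butyrate. Of the 6 tested members, 5 lay below control in each treated group. Of all tested genes, 79.3% lay below control with propionate, 78.8% with butyrate and 65.9% with the combination, and a count of 5 of 6 is near those shares. The 6 are the members that passed the filter on low values, and the other 4 have no tested value. Without control replicate 3, the control library low in Star, Inha and Amh, 5654 of the 15163 tested genes passed in butyrate against control. Star, Inha and Amh were among them at -3.63, -2.88 and -2.21. Since that library is marked out by its low values of these genes, leaving it out favours their passing. Weights per library gave 11434, 10256 and 5786 passing genes of the 15163 in the 3 comparisons with control. Star, Inha, Amh and Cyp11a1 passed in each, where so many genes passed that this does not set them apart. With a covariate built from the 10 tested genes of the granulosa and oocyte lists, Star, Cyp11a1 and Inha turned to 0.23, 0.17 and 0.15 for propionate against control. Amhr2 and Sohlh1, 2 of those genes, had the same 11 highest libraries as Star. The covariate thus takes up the division that Star follows, and this turn is no test of what lies behind the differences.

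No tested member passed the threshold between the combination and either acid alone. Star differed by -0.19 ± 1.32 (SE) from propionate and by 0.23 ± 1.32 from butyrate, with limma adjusted p-values of 0.9656 and 0.9112. Inha differed by -0.27 ± 1.15 and -0.23 ± 1.15, Amh by -0.09 ± 0.69 and 0.34 ± 0.69, and Cyp11a1 by 0.11 ± 0.50 and 0.10 ± 0.50, none past the threshold. The SEs of Star and Inha are wide enough that differences of several fold in either direction are within reach of these values. Fdx1 differed by 0.04 ± 0.12 (SE) from propionate and by 0.33 ± 0.12 from butyrate, where 35 of 36 pairs were higher in the combination and the median of all genes was 0.30. Scaled by the median of ratios these became -0.21 and -0.01, and after quantile normalization -0.15 and 0.01, so neither direction held.

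The wide spread of Star, Inha and Amh within groups followed a division of the libraries that crossed the treatments. Star was above 20 TPM in 11 libraries, namely replicates 1, 2, 4, 5 and 6 of control, 3 and 4 of propionate, 2 and 3 of butyrate and 3 and 4 of the combination. In the other 13 libraries Star was at most 7.97 TPM. The 11 libraries highest in Star were also the 11 with the highest Inha, Amh and Cyp17a1, and they held 10 of the 11 with the highest Cyp11a1. Inha was 16.86 to 77.21 TPM in these 11 libraries and 0.43 to 6.94 TPM in the others. Amh was 1.61 to 11.36 TPM in the 11 and 0 to 0.76 TPM in the others. Cyp17a1 was 0.22 to 0.65 TPM against 0 to 0.17 TPM.

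Ratios between these genes were taken within libraries. Over the 11 libraries Inha was 0.3359 to 0.7979 of Star, Amh 0.04748 to 0.1071 of Star and Nr5a1 0.3142 to 0.5353 of Star, all as ratios of TPM. The receptor for anti-Müllerian hormone, Amhr2, was 2.988 to 4.937 times Star in TPM. The second of the 2 Star transcripts carried 25.66 to 45.64% of Star in the 11 libraries. In the other 13, where Star itself was low, it carried 0 to 34.96%, which overlaps.

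Fdx1 and Akr1c18 were not high in the same 11 libraries. For Fdx1, 8 of the 11 libraries with the highest Fdx1 were among the 11 with the highest Star, and it ranged over 21.84 to 38.81 TPM in those 11 against 20.44 to 38.08 TPM in the others. For Akr1c18 a single library of its top 11 was shared with Star, so most of its highest libraries were among the other 13, with 0.44 to 4.96 TPM in the 11 and 1.25 to 12.05 TPM in the others. Adipoq, a defining gene of fat, also shared 1 library of its top 11 with Star, and Acta1, a gene of skeletal muscle, shared 2.

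Among the genes outside the list that were looked at, several had the same 11 libraries at the top. They were Nr5a1 (11.31 to 57.98 TPM in the 11, 0 to 3.52 TPM in the others), the gonadal and mesothelial factors Gata4 and Gata6, Amhr2, the cholesterol-storing enzyme Soat1, the estrogen-hydroxylating enzyme Cyp1b1, Akr1c14, the androgen-making enzyme Hsd17b3 and the oocyte-list gene Sohlh1. They also included 2 genes of the mesothelium, the lining of the abdomen: Wt1 was 71.43 to 367.8 TPM in the 11 and 0 to 27.97 TPM in the others, and Msln was 22.85 to 79.96 TPM against 0.49 to 11.04 TPM. Another mesothelium gene, Upk3b, shared 10 of the 11, at 17.45 to 230.4 TPM in the 11 and 0.04 to 19.63 TPM in the others. The keratins Krt8 and Krt18 and the proliferation gene Mki67 also shared 10 of the 11. In the others Krt8 still reached 123 TPM and Krt18 191 TPM. The Krt8 value was in combination replicate 5, where Star was 1.98 TPM and Wt1 was 0. All 8 mesothelium genes lay below control in each treated group, with median log2 differences of -1.24, -1.56 and -1.63, and none passed limma's test. The shares of all tested genes below control were 79.3%, 78.8% and 65.9%. Their summed level was 12.5 to 1117 TPM in control, 24.01 to 914.8 TPM with propionate, 11.81 to 391 TPM with butyrate and 16.67 to 647.4 TPM with the combination. All 6 genes of cycling cells also lay below control in each treated group, with median log2 differences of -1.73, -1.77 and -1.26, beside the same shares of all genes, and none passed. Of 8 listed genes of epithelial keratins and carcinoma, 6 were tested. All 6 lay below control with propionate and butyrate and 3 with the combination, beside the same shares of all genes. Their median log2 differences were -1.02, -1.37 and -0.28, and none passed. The part of mesothelial, tumour or cycling cells in the Star, Inha, Amh and Cyp11a1 values was not tested.

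**Figure D4:**
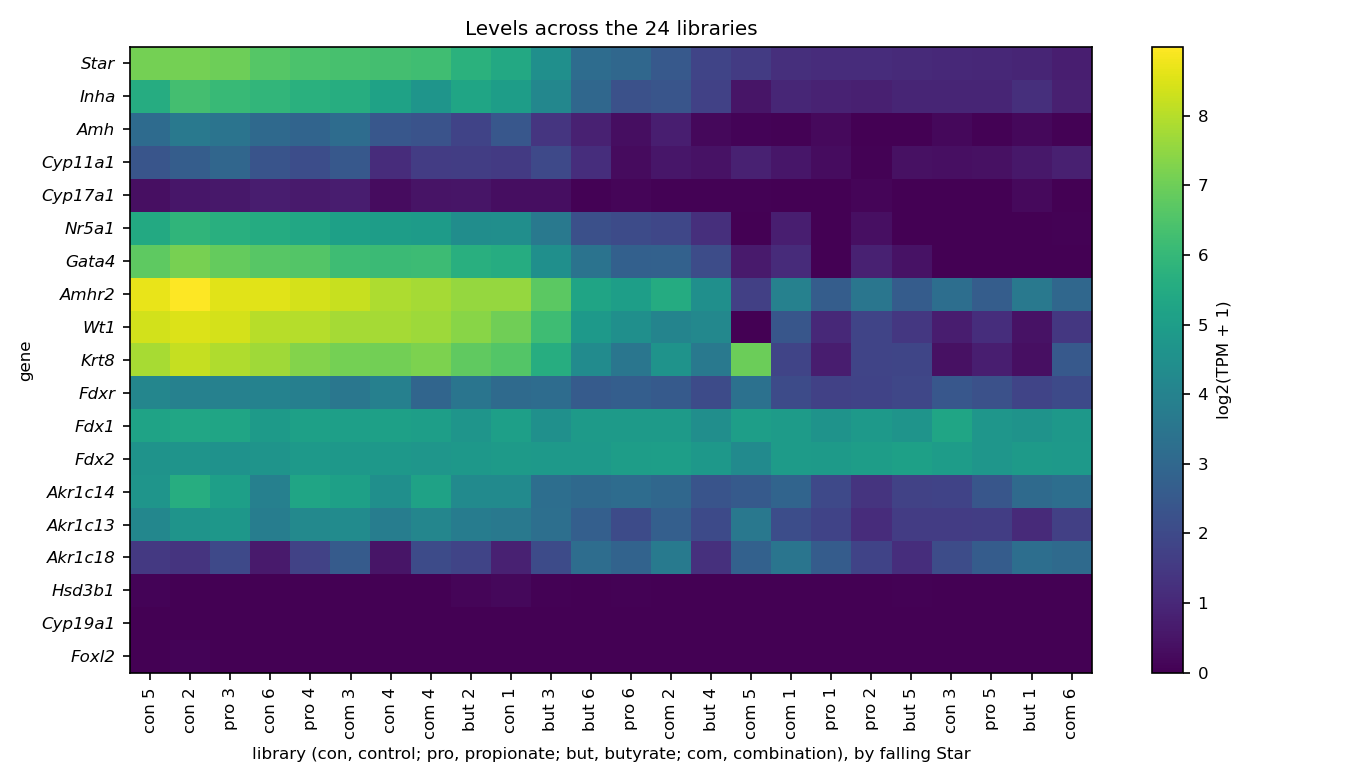
Colour scale of log2(TPM + 1) for the members and related genes (rows) in the 24 libraries (columns, ordered by falling Star; con, control; pro, propionate; but, butyrate; com, combination). The 11 libraries on the left are high in Star, Inha, Amh, Nr5a1, Gata4, Amhr2 and Wt1 together, Fdx1 is nearly even across the plot, and Hsd3b1, Cyp19a1 and Foxl2 are dark throughout.

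Relations of Cyp11a1 with Wt1, which is not a member, and with the members Fdx1 and Akr1c18 were computed across the 24 libraries. They used log2(TPM + 1) with group means subtracted, permutation within groups (100000 resamples, two-sided) and Benjamini-Hochberg adjustment over the 3 relations. Wt1 and Cyp11a1 ran together, with Pearson r of 0.83 (adjusted permutation p = 0.00012) and Spearman rho of 0.79 (adjusted permutation p = 0.00021), and r was 0.82 without the 2 libraries farthest from the median of Cyp11a1. Within groups r was 0.83 in control, 0.91 with propionate, 0.82 with butyrate and 0.79 with the combination, each over 6 libraries. Wt1 was high in the same 11 libraries as Star, which held 10 of the 11 highest in Cyp11a1. The relation therefore restates the division of the libraries described above, and its p-values are no separate support for that division.

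Fdx1 and Cyp11a1 had a Pearson r of 0.50 (permutation p = 0.03944, adjusted 0.05916) and a Spearman rho of 0.41 (permutation p = 0.08771, adjusted 0.1316), which did not pass. Without propionate replicate 3 and control replicate 2, the farthest libraries, r was 0.26, so the value rests on them. Within groups it was -0.17 in control, 0.87 with propionate, 0.18 with butyrate and 0.66 with the combination. The sign turned with the scaling, to -0.70 after scaling by the median of ratios and -0.63 after quantile normalization, both past the threshold (adjusted permutation p = 0.002249 and 0.003748). The median-of-ratios factors were 0.9905 to 1.491 in the 11 libraries highest in Star. In the others they were 0.6702 to 1.029, except 1.481 in combination replicate 5. Division by these factors lowers Fdx1 more where the factor is larger. How far r comes from the scaling, with these factors or in TPM without them, was not tested. Akr1c18 and Cyp11a1 had an r of -0.28 (permutation p = 0.1629, adjusted 0.1629) and a rho of -0.23 (permutation p = 0.2694, adjusted 0.2694), and r was -0.31 without the 2 farthest libraries. It passed under the other scalings, at -0.46 (adjusted permutation p = 0.02649) after the median of ratios and -0.42 (adjusted permutation p = 0.04948) after quantile normalization. The limit given for Fdx1 under the median of ratios holds here too. Within groups r was -0.27, -0.53, 0.17 and -0.73 in control, propionate, butyrate and the combination.

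**Figure D5:**
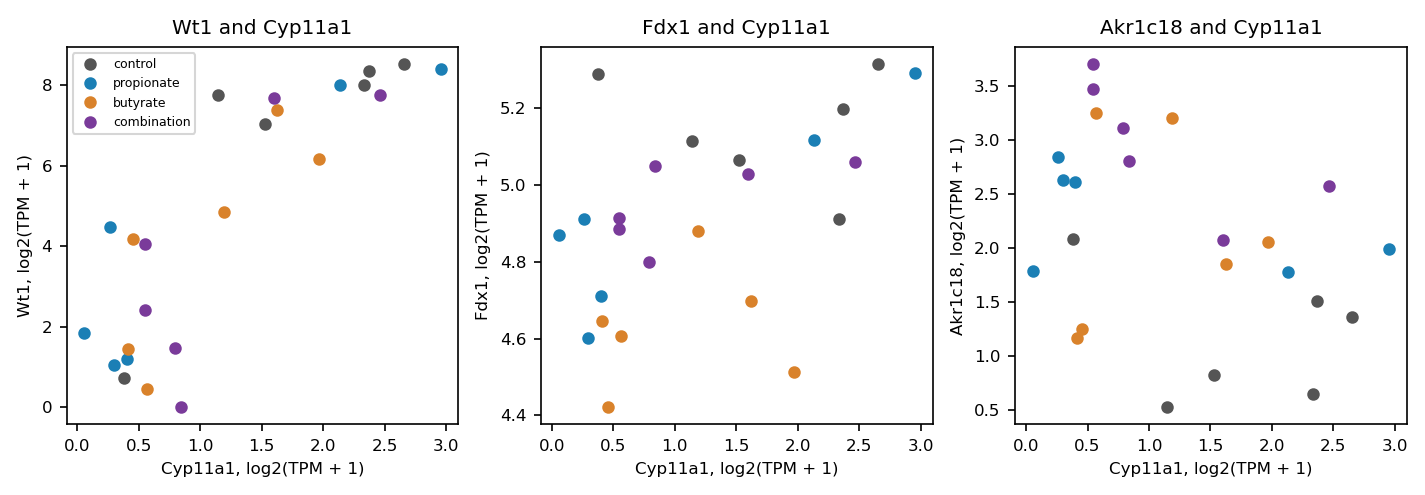
Wt1, Fdx1 and Akr1c18 (y axes) against Cyp11a1 (x axes), all as log2(TPM + 1), with 1 point per library coloured by group. Wt1 climbs with Cyp11a1 in every group (centred r of 0.83), and Fdx1 and Akr1c18 scatter with r of 0.50 and -0.28.

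The genes outside the list with the pattern most like each member were ranked by Pearson r of log2(TPM + 1) over the 24 libraries, as a description in which all genes share the libraries and their scaling. For Cyp11a1 they were Klhl29 (r of 0.953), Kif4 (0.947), C1qtnf1 (0.945), F2rl2 (0.945) and Rab31 (0.944). Kif4, a motor protein of dividing cells, ranged from 0 to 5.95 TPM. For Fdx1 they were Gabarapl2 (r of 0.858), Mrps17 (0.858), Leng1 (0.855), Ado (0.85) and Spart (0.845). Gabarapl2, a protein of autophagy, ranged from 75.89 to 128.19 TPM and had means of 112.1 TPM in control and 89.19 TPM with butyrate. For Akr1c18 they were Plpp3 (r of 0.83), Ebf2 (0.787), Cd209f (0.781), Clec3b (0.773) and Lrrc17 (0.757). The mean of Plpp3, a lipid phosphatase, was 41.18 TPM in control and 62.27 TPM with the combination, and that of Clec3b was 87.99 TPM and 158.1 TPM.

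Among 14 transcription factors and hormone receptors of steroid-making and gonadal cells, 8 were tested, 7 lay below control and 1 above in each treated group, and none passed limma's test. Their median log2 differences were -1.02 with propionate, -1.25 with butyrate and -0.93 with the combination, against medians of all genes of -0.30, -0.38 and -0.12. Beside the count of 7 of 8, 79.3%, 78.8% and 65.9% of all tested genes lay below control. Amhr2 had means ± SD (n = 6) of 289.1 ± 180.6 TPM in control and 61.18 ± 71.72 TPM with butyrate, a log2 difference of -2.45 ± 1.30 (SE) with a limma adjusted p of 0.1629. Gata4 had means ± SD (n = 6) of 76.78 ± 49.72 TPM in control and 14.11 ± 19.31 TPM with butyrate, a difference of -2.69 ± 1.5 (SE) with a limma adjusted p of 0.1817. Nr4a1, an immediate early nuclear receptor, differed by -0.67 ± 0.28 (SE) and Esr1, the estrogen receptor alpha, by -0.29 ± 0.17 with butyrate, with limma adjusted p-values of 0.1162 and 0.2054. Nr0b1, a repressor that works with NR5A1, was at 0 in 23 libraries.

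All 16 genes of cholesterol supply were tested, and 15 lay below control with propionate, 15 with butyrate and 13 with the combination, with medians of -0.95, -1.01 and -0.43. In the same order, 79.3%, 78.8% and 65.9% of all tested genes lay below control, with medians of -0.30, -0.38 and -0.12. None of the 16 passed limma's test. With propionate and butyrate, 7 and 11 of the 16 were lower at an unadjusted limma p under 0.05, against 9.13% and 35.1% of all genes. Against propionate and against butyrate, all 16 were higher in the combination, where 76.9% and 81.6% of all genes were. Tspo, a cholesterol-binding protein of the outer mitochondrial membrane, had means ± SD (n = 6) of 222.2 ± 92.39 TPM in control, 147 ± 103.4 TPM with propionate, 109.4 ± 34.78 TPM with butyrate and 203.7 ± 85.13 TPM with the combination. Its log2 difference with butyrate was -0.95 ± 0.40 (SE), with a limma adjusted p of 0.1178. Hmgcs1, an enzyme of cholesterol synthesis, differed by -1.02 ± 0.51 (SE) with propionate, -1.11 ± 0.51 with butyrate and -0.54 ± 0.51 with the combination. Npc2, which moves cholesterol out of lysosomes, differed by -0.54 ± 0.36, -0.61 ± 0.36 and 0.26 ± 0.36 in the same order. Lipe, a lipase that frees stored cholesterol and fat and is abundant in adipocytes, lay above control in each treated group, at 1.18 ± 0.42 (SE) with the combination and a limma adjusted p of 0.3396. Its combination median was 39.32 TPM and its highest combination library 313.3 TPM, against a control median of 24.02 TPM.

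Of 7 listed names of redox partners, 6 were found among the gene names, and all 6 of these were tested. With propionate and butyrate 5 of the 6 lay below control, and with the combination 5 of the 6 lay above it, with medians of -0.35, -0.47 and 0.21, and none passed limma's test. The counts with the single acids are near the 79.3% and 78.8% of all genes below control, and with the combination 34.1% of all genes lay above it. Cyb5a, cytochrome b5, which aids CYP17A1, had means ± SD (n = 6) of 236 ± 107.1 TPM in control, 132.8 ± 40.83 TPM with butyrate and 269.1 ± 106 TPM with the combination. Cyb5b differed from control by -0.39 ± 0.26 (SE) with butyrate and 0.26 ± 0.26 with the combination. Por, the reductase that serves microsomal enzymes such as CYP17A1 and CYP19A1, differed by -0.55 ± 0.31 (SE) and 0.19 ± 0.31. The combination medians of Cyb5a, Cyb5b and Por were 302, 45.42 and 34.06 TPM, against control medians of 211.8, 44.26 and 39.88 TPM, so the median of Por lay below control. In their highest combination library Cyb5b and Por reached 130.5 and 137.5 TPM.

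Of 29 other steroid-converting enzymes, 17 were tested. Below control lay 15 with propionate, 15 with butyrate and 10 with the combination, with medians of -0.47, -0.59 and -0.10, and none passed limma's test. Of all tested genes, 79.3%, 78.8% and 65.9% lay below control, so the combination count of 10 of 17 is no higher than that share. The most abundant was Hsd17b10, a mitochondrial enzyme also needed for fatty acid breakdown, with 68.66 to 131.91 TPM and a log2 difference of -0.44 ± 0.15 (SE) with butyrate at a limma adjusted p of 0.1148. Hsd17b12, which also elongates fatty acids, had means ± SD (n = 6) of 44.35 ± 16.03 TPM in control and 67.14 ± 52.78 TPM with the combination. Its medians were 43.83 and 51.26 TPM, and its highest combination library was at 168.8 TPM. Hsd17b4, an enzyme of peroxisomes, differed by -0.28 ± 0.19 (SE) and Hsd17b11, an enzyme of lipid droplets, by -0.29 ± 0.25 with butyrate. Hsd17b1, which makes estradiol in granulosa cells, did not exceed 0.44 TPM. Of 6 adrenal genes only Mrap, which adipocytes also make, was tested, and it differed by 1.47 ± 0.56 (SE) in the combination with a limma adjusted p of 0.3595. Its combination median was 16.82 TPM and its highest combination library 140 TPM, against a control median of 9.245 TPM.

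Marker lists of the cells of the ovary, without the members, were counted in the same way. Of 14 granulosa genes other than the members, 8 were tested and 6 of them lay below control in each treated group, with medians of -0.47, -0.54 and -0.36, and 6 of 8 is near the share of all genes below control (79.3%, 78.8% and 65.9%). Of 8 luteal genes, 7 were tested and 4 lay below control in each treated group, with medians of -0.39, -0.35 and -0.05. Of 5 theca genes, 4 were tested and 2 lay below control, and Insl3, the defining hormone of theca cells, did not exceed 1.81 TPM. None of the tested genes of these lists passed limma's test. Genes of the oviduct and uterus lining summed to at most 13.37 TPM in any library.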

How the data were processed

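RNA was extracted with TRIzol and made into stranded libraries of polyadenylated RNA, per the labels' protocols. The submitters' processing notes name fastp, HISAT2, StringTie and mouse build mm39; versions, settings and annotation were not given in the sources used here. What the authors deposited is a table of TPM for 149132 transcripts, which keeps no depth, so depth is unknown and no counting interval is given. TPM was summed by gene name; 1001 transcripts without a name, 0.1741 to 0.4702% of a library, were left out. The 15163 genes that reached 1 TPM in 6 or more libraries were fitted as log2(TPM + 1) in limma 3.58.1 (R 4.3.3; trend and robust settings, two-sided, all 24 libraries), with Benjamini-Hochberg adjustment and a threshold of 0.05. The procedure was tested on simulated data. Groups come from the sample labels. The members and gene lists were chosen with earlier results of these data known. From each pathway list the 4 tested genes of highest mean log2(TPM + 1), and any that passed, are named; other genes named were chosen after their values were seen. The promoter search used RefSeq windows of build GRCm38.p6. Alternatives were another pseudocount, other filters, 2 other scalings, library weights and fits of only the compared groups or without trend and robust settings. Others were replicate blocks, a marker covariate of 10 tested genes of the granulosa and oocyte lists, the most abundant transcript alone, and leaving out each library.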

Additional observations from a re-analysis of the deposited data

Results flagged for a closer look

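In groups of 6 libraries, a library was marked where its gap to the nearest other library, over the range of the group, exceeded 0.625 (Dixon's 95% value). Of 33 groups tested, 6 were marked, and chance marks about 1 in 20. Control replicate 3 was far below the other control libraries in 3 genes: Star was 1.06 TPM there against 41.46 TPM in the nearest, Inha 0.89 TPM against 31.08 TPM and Amh 0.13 TPM against 4.42 TPM. The other 3 marks are at levels too low to interpret. Hsd3b1 was 0.14 TPM in control replicate 1, where the nearest was 0.05 TPM, and 0.04 TPM in propionate replicate 6, where the others were at 0. Foxl2 was 0.02 TPM in butyrate replicate 6, where the others were at 0.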

How the results depend on the processing

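No gene passed in any comparison, and that count changed mainly with weights per library, which gave 11434 genes for propionate against control, 10256 for butyrate, 5786 for the combination, 5026 for the combination against propionate and 572 against butyrate. A replicate block by the number in the library description gave 7903 genes for butyrate against control and 5 for the combination against butyrate. The marker covariate gave 274 genes for the combination against control and 1 against propionate. Median-of-ratios scaling gave 46 and quantile normalization 41 for the combination against control. Leaving out single libraries gave 0 to 5654 genes for butyrate against control, the highest without control replicate 3, 0 to 2 for the combination against control and 0 to 1 against butyrate; the 2 and a 1 came without combination replicate 6, and a 1 without butyrate replicate 6. Star, Inha and Amh passed in butyrate against control with the weights, with that block and without control replicate 3. The cause was not tested.

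Directions of members turned as follows. Fdx1, with median-of-ratios scaling and quantile normalization, was 0.13 and 0.10 for propionate against control and -0.21 and -0.15 for the combination against propionate; against butyrate it was -0.01 and 0.01, and without propionate replicate 1 the combination against propionate was -0.02. With the marker covariate, Star was 0.23, Cyp11a1 0.17 and Inha 0.15 for propionate against control, Cyp11a1 0.24 and Inha 0.24 for butyrate against control, Cyp11a1 -0.22 for the combination against propionate, and Star -0.88, Cyp11a1 -0.29 and Amh -0.24 for the combination against butyrate. With weights, Star was 1.16, Inha 1.07 and Amh 0.63 for the combination against propionate and Inha 0.14 against butyrate. With the library-number block, Cyp11a1 was -0.27 for the combination against propionate. For the combination against butyrate, Star was -0.03 and Cyp11a1 -0.06 with median-of-ratios scaling and -0.02 and -0.05 with quantile normalization. Leaving out single libraries, the combination against propionate ranged from -0.84 to 0.55 for Star, -0.15 to 0.50 for Cyp11a1, -0.90 to 0.38 for Inha and -0.52 to 0.37 for Amh, and the combination against butyrate from -0.42 to 0.81, -0.17 to 0.28, -0.86 to 0.28 and -0.09 to 0.55.

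Fdx1 against Cyp11a1 had r of -0.70 with median-of-ratios scaling, -0.63 with quantile normalization, 0.51 without subtracting group means, which passed, and 0.32 to 0.63 with single libraries left out; it also passed under both scalings and without control replicate 3 or 6, butyrate replicate 3 or combination replicate 5. Akr1c18 against Cyp11a1 had -0.46 and -0.42 under the 2 scalings, past the threshold in both, and -0.37 to -0.18 with single libraries left out, and Wt1 0.81 to 0.86. The 2000 resamples used for these alternatives limit their p-values. Same-numbered libraries had a median correlation of -0.07 by title number and 0.24 by library number, against -0.02 and -0.06 for other pairs. Of the same-numbered pairs, 16 of 36 and 18 of 27 were above 0.1. The labels state no pairing, so the numbers were not taken to pair the samples, but these values cannot exclude a pairing by library number. The block by title number gave 0 calls in each comparison. Cyp11a1 has no value under the filter of TPM at least 5. Depth is unknown, and levels near 0 cannot be told from absence.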
